A study of Mus musculus with 19 samples.

Results

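Apical progenitors (APs), the radial glia of the embryonic neocortex, were followed through the RNA of 10 marker genes, *Pax6*, *Sox2*, *Nes*, *Vim*, *Fabp7*, *Slc1a3*, *Prom1*, *Sox9*, *Hopx* and *Gli3*. The genes were chosen by name as known AP markers, with earlier results of these data known. Each matched 1 of the 51912 gene identifiers in the count files. Counts of 9 of the 10 passed the filter on low counts in every comparison, and *Sox2* was listed at 0 throughout.

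Each library held the whole-tissue RNA of 1 embryonic neocortex at E13.5, with 7 embryos labelled ctrl, 5 cKO-E and 7 dKO-E, all of mixed C57BL/6 and 129 background. The cKO-E embryos were Emx1 Cre/+ and Ino80 fl/fl, and lack the chromatin remodeler INO80 where Cre has acted. The dKO-E embryos were Emx1 Cre/+, Ino80 fl/fl and Trp53 fl/fl, and lack p53 there as well. The remaining embryos are labelled control, without their alleles, so it is not known here whether they carried Cre or floxed alleles. *Emx1*-driven Cre acts in dorsal cortical neural progenitor cells (NPCs) and so in the excitatory neurons and astrocytes that they make, while interneurons, microglia, vessels and meninges keep *Ino80* and *Trp53*.

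APs line the ventricle, where their end-feet are held together by adherens junctions, and extend a basal process to the pial surface. They divide at the ventricular surface and produce intermediate progenitors and neurons. The markers belong to different parts of this cell. *Prom1* encodes prominin 1, a membrane protein of apical protrusions. *Pax6*, *Sox2*, *Sox9* and *Gli3* encode transcription factors of the progenitor state, *Gli3* acting mainly as a repressor of Hedgehog targets in dorsal telencephalon. *Nes* and *Vim* encode the intermediate filaments nestin and vimentin, *Fabp7* a brain lipid-binding protein, *Slc1a3* the glutamate transporter GLAST, and *Hopx* a small homeodomain protein known from outer radial glia.

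Gene totals ranged from 820915 to 8095810 deduplicated counts per library, the lowest in cKO-E embryo D and the highest in dKO-E embryo C. The ctrl embryos came from 4 litters, the cKO-E embryos from 5 and the dKO-E embryos from 2, and only litter 1 held both ctrl and dKO-E embryos. The 2 mutant genotypes shared no litter, so genotype and litter cannot be told apart between these groups. Sequencing batch 1 held 4 ctrl, 3 cKO-E and 4 dKO-E embryos, and batch 2 held 3 ctrl, 2 cKO-E and 2 dKO-E embryos. Batch 3 held 1 dKO-E embryo. Tests within batch 2 thus rest on few embryos. Of the dKO-E embryos, batch 1 held A, B and C of litter 1 and D of litter 2, and batch 2 held F and G of litter 2. Values of dKO-E within single batches thus mix batch with litter. Females and males numbered 4 and 3 in ctrl, 4 and 1 in cKO-E, and 2 and 5 in dKO-E. Counts over the whole *Ino80* gene were higher in both mutants, by 0.48 (SE 0.07, adjusted p = 7.92e-05) in cKO-E and 0.62 (SE 0.06, adjusted p = 8.84e-07) in dKO-E on the log2 scale, and sums over a gene cannot show the loss of single exons. *Trp53* was 0.36 lower in dKO-E than ctrl (SE 0.10, adjusted p = 0.0196). *Emx1*, the gene that carries Cre, was 0.34 lower in cKO-E than ctrl (SE 0.09, adjusted p = 0.0103), and in dKO-E it was 0.10 above ctrl (SE 0.09, adjusted p = 0.508).

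*Sox2* gave no information. Its single exon (chr3:34650405-34652461, GRCm38, plus strand) was listed at 0 counts in 19 of 19 libraries, and so was the related gene *Sox1*. *Sox2ot*, a noncoding gene on the same strand whose span surrounds *Sox2* without sharing exon bases in GENCODE M21, had between 257 and 2689 counts. *Tubb3* and *Neurod1*, 2 neuronal genes named after their values were seen, were also listed at 0 in every library. *Sox3*, another relative of *Sox2*, was counted in all libraries, at 50.9 ± 7.9 CPM in ctrl (SD, n = 7), 30.7 ± 5.5 in cKO-E (n = 5) and 53.0 ± 16.9 in dKO-E (n = 7). CPM are counts scaled to a common library size with edgeR's TMM factors. The reason for the zeros was not tested.

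Levels of the other 9 markers were set side by side as CPM per kilobase of exons, since longer genes collect more counts. The length is that of all annotated exons of a gene, merged over its transcripts, so the order depends on the annotation. In ctrl, *Gli3* had the highest level at 112.1 ± 9.8 CPM per kilobase (SD, n = 7), followed by *Vim* at 85.7 ± 8.2, *Fabp7* at 50.8 ± 5.3 and *Nes* at 46.5 ± 4.1. A lower tier held *Prom1* at 23.0 ± 2.9, *Sox9* at 21.7 ± 0.7, *Pax6* at 17.7 ± 2.4 and *Slc1a3* at 15.8 ± 1.0. *Hopx* was lowest at 3.71 ± 1.55. Ranges over embryos overlapped in 4 of the 8 neighbouring pairs in this order, *Fabp7* with *Nes*, *Prom1* with *Sox9*, *Sox9* with *Pax6*, and *Pax6* with *Slc1a3*. The order of the first 4 genes was the same in cKO-E and dKO-E. In cKO-E, *Fabp7* at 76.1 ± 7.5 CPM per kilobase lay close to *Vim* at 79.5 ± 10.3 with overlapping ranges, whereas in ctrl the ranges of the pair were apart. *Prom1* ranked 5 in ctrl, 6 in dKO-E and 7 in cKO-E, within a tier whose neighbouring ranges overlapped in both mutants.

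**Figure D1:**
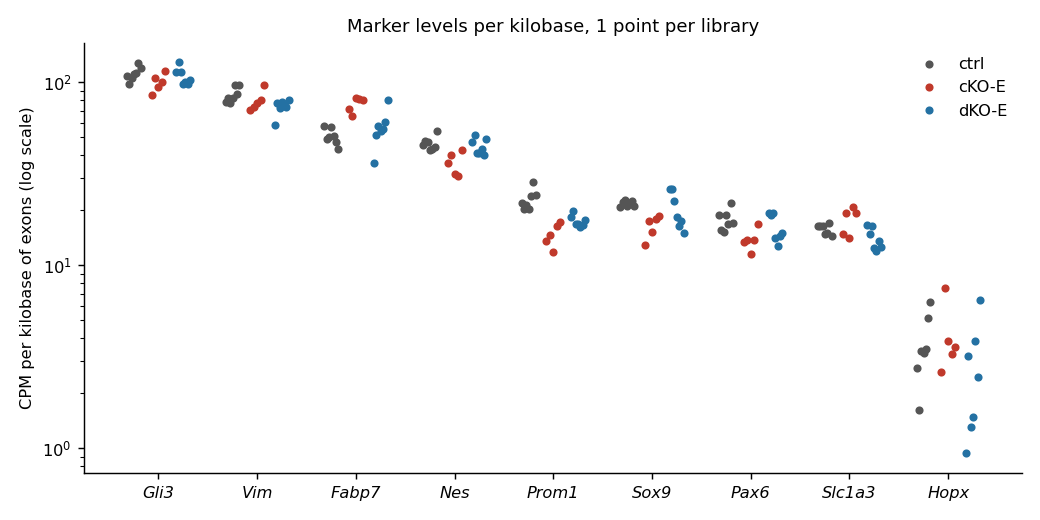
Level of each marker in CPM per kilobase of exons on a log axis, with 1 point per library (7 ctrl in grey, 5 cKO-E in red, 7 dKO-E in blue). *Gli3*, *Vim*, *Fabp7* and *Nes* lie above the tier of *Prom1*, *Sox9*, *Pax6* and *Slc1a3* in all 3 groups, and *Hopx* lies lowest; *Sox2*, listed at 0, is not drawn.

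The first comparison asked how AP markers differ after *Ino80* deletion from cortical NPCs. In cKO-E, *Prom1*, *Sox9*, *Nes* and *Pax6* were downregulated and *Fabp7* was upregulated, so that 5 of the 9 markers tested were called and they did not move in 1 direction. The fall ranged from 0.34 to 0.64 and the rise was 0.56 on the log2 scale. A gene is called when its Benjamini-Hochberg adjusted p is below 0.05 over all genes tested, by the quasi-likelihood test of edgeR. Of the 11660 genes tested, 9.88% were called lower and 7.31% higher in cKO-E, beside 4 and 1 of the 9 markers. The median log2 change of the 9 was -0.16, against 0.02 over all genes tested. In bulk tissue, fewer cells of a type and less RNA per cell cannot be told apart.

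*Prom1* (chr5:43993620-44102032, minus strand) fell most. It ranged in ctrl from 145.9 to 205 CPM with a median of 157, and stood at 97.0, 104.8, 85.1, 118 and 124 CPM in cKO-E embryos A to E. All 5 cKO-E embryos lay below all 7 ctrl embryos. The log2 change was -0.64 (SE 0.10, 95% interval -0.85 to -0.43, adjusted p = 0.000278), and it was -0.66 within sequencing batch 1 (adjusted p = 9.84e-05) and -0.59 within batch 2 (adjusted p = 0.00885). An antisense gene, *Gm16401*, shares 5.91% of the exon bases of *Prom1* and had 0 to 23 counts per library, and whether counting used strand is not stated.

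*Fabp7* (chr10:57784881-57788450, plus strand) was the marker that rose. It ranged in ctrl from 53.7 to 72.4 CPM with a median of 62.7, and stood at 89.0, 81.6, 102.4, 101.9 and 100.5 CPM in cKO-E embryos A to E. The groups did not overlap. The log2 change was 0.56 (SE 0.08, 95% interval 0.38 to 0.73, adjusted p = 0.000182), with 0.43 within batch 1 (adjusted p = 0.00785) and 0.78 within batch 2 (adjusted p = 0.00353). *Prom1* and *Fabp7* were the markers that also passed a stricter false discovery rate of 0.001 by the quasi-likelihood test, which 3.38% of all genes tested passed. The study used this rate with likelihood ratio tests, so its calls can differ.

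The promoters of these genes are shown because they had the largest fall and the largest rise among the called markers. Each is the RefSeq window on GRCm38.p6 from 250 bases before to 50 bases after a transcription start, written 5′ to 3′ on the strand of the gene, with capitals on the letters that read TGGGAA, the core bound by the Notch effector RBPJ, on the opposite strand.
Prom1, chr5:44101687-44101986, minus strand: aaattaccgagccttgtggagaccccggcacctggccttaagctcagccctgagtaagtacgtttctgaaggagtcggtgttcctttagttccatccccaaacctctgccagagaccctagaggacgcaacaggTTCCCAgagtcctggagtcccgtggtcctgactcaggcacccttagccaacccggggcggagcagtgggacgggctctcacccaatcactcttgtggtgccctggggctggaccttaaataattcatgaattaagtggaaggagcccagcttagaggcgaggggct
Fabp7, chr10:57784673-57784972, plus strand: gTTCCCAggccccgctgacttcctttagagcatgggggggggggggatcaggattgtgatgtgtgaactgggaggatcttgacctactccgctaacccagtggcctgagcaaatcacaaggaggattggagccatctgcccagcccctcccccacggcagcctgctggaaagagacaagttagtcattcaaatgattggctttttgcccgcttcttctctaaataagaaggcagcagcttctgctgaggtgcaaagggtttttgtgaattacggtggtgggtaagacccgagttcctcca
The match begins 116 bases before the start in *Prom1* and 249 bases before it in *Fabp7*, and 25.6% of the 32851 mouse promoter windows hold such a match on either strand. The window of a second *Prom1* start, at chr5:44094719-44095018, holds none. Of the 9 markers with a window, none holds the core motif of YY1 (AANATGGC, either strand), which 6.05% of all windows hold. A TATA box (TATAAA), found in 13.6% of windows on either strand, lies 32 bases before the start of *Vim* on its own strand and 161 bases before that of *Slc1a3* on the opposite strand. These matches describe letters only.

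Among the transcription factors, *Sox9* (chr11:112782224-112787760, plus strand) was narrow in ctrl, from 85.7 to 93.5 CPM with a median of 90.1. In cKO-E embryos A to E it stood at 53.1, 72, 62.7, 74.5 and 77.1 CPM. The groups were apart, and the log2 change was -0.42 (SE 0.08, adjusted p = 0.00192). It was -0.52 within batch 1 (adjusted p = 0.00236) and -0.24 within batch 2 (adjusted p = 0.303).

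*Pax6* (chr2:105668900-105697364, plus strand) ranged from 177 to 257 CPM in ctrl with a median of 198, and stood at 156, 161, 135, 160.3 and 198 CPM in cKO-E embryos A to E. Only embryo E reached into the ctrl range. The log2 change was -0.35 (SE 0.10, adjusted p = 0.0211), -0.41 within batch 1 (adjusted p = 0.00887) and -0.25 within batch 2 (adjusted p = 0.332). The call was lost with litter as a block (-0.33, adjusted p = 0.0653), without cKO-E embryo A (-0.34, adjusted p = 0.0507) and without cKO-E embryo C (-0.29, adjusted p = 0.0729). *Gli3* had 1075 ± 94 CPM in ctrl (SD, n = 7) and 962 ± 111 in cKO-E (n = 5), a log2 change of -0.16 (SE 0.08, adjusted p = 0.180) that was not called.

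The filament genes parted. *Nes* (chr3:87971078-87980451, plus strand) ranged from 272 to 349.8 CPM in ctrl with a median of 293, and stood at 234, 256, 203, 196 and 275 CPM in cKO-E embryos A to E. In 4 of the 5 cKO-E embryos it lay below every ctrl embryo, with a log2 change of -0.34 (SE 0.08, adjusted p = 0.00943), -0.36 within batch 1 (adjusted p = 0.00785) and -0.32 within batch 2 (adjusted p = 0.215). *Vim*, at 407 ± 39 CPM in ctrl and 377 ± 49 in cKO-E, was not called (-0.11, SE 0.08, adjusted p = 0.428). Whether the changes of *Nes* and *Vim* differ from each other was not tested.

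*Slc1a3* and *Hopx* were not called. *Slc1a3* had 135 ± 8 CPM in ctrl and stood at 127, 165, 120.0, 179 and 166 CPM in cKO-E embryos A to E, so that 3 cKO-E embryos lay above and 1 below all ctrl embryos. Its log2 change was 0.15 (SE 0.09, adjusted p = 0.296), 0.002 within batch 1 and 0.36 within batch 2 (adjusted p = 0.0725). *Hopx* rested on 4 to 40 counts per library in these groups, at 5.62 ± 2.35 CPM in ctrl and 6.32 ± 2.89 in cKO-E (log2 change 0.34, SE 0.32, adjusted p = 0.529). Without cKO-E embryo B, which held 40 of these counts, the *Hopx* value was -0.05. The antisense gene *Hopxos* shares 27.2% of the exon bases of *Hopx* and had at most 2 counts per library.

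Groups did not overlap for 3 of the 9 markers, *Prom1*, *Sox9* and *Fabp7*, and for 8.77% of all genes tested. When libraries were scaled by total counts in place of TMM factors, the calls over all genes in this comparison went from 852 higher and 1152 lower to 1068 higher and 910 lower. The same 5 directions among the called markers held under that scaling.

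**Figure D2:**
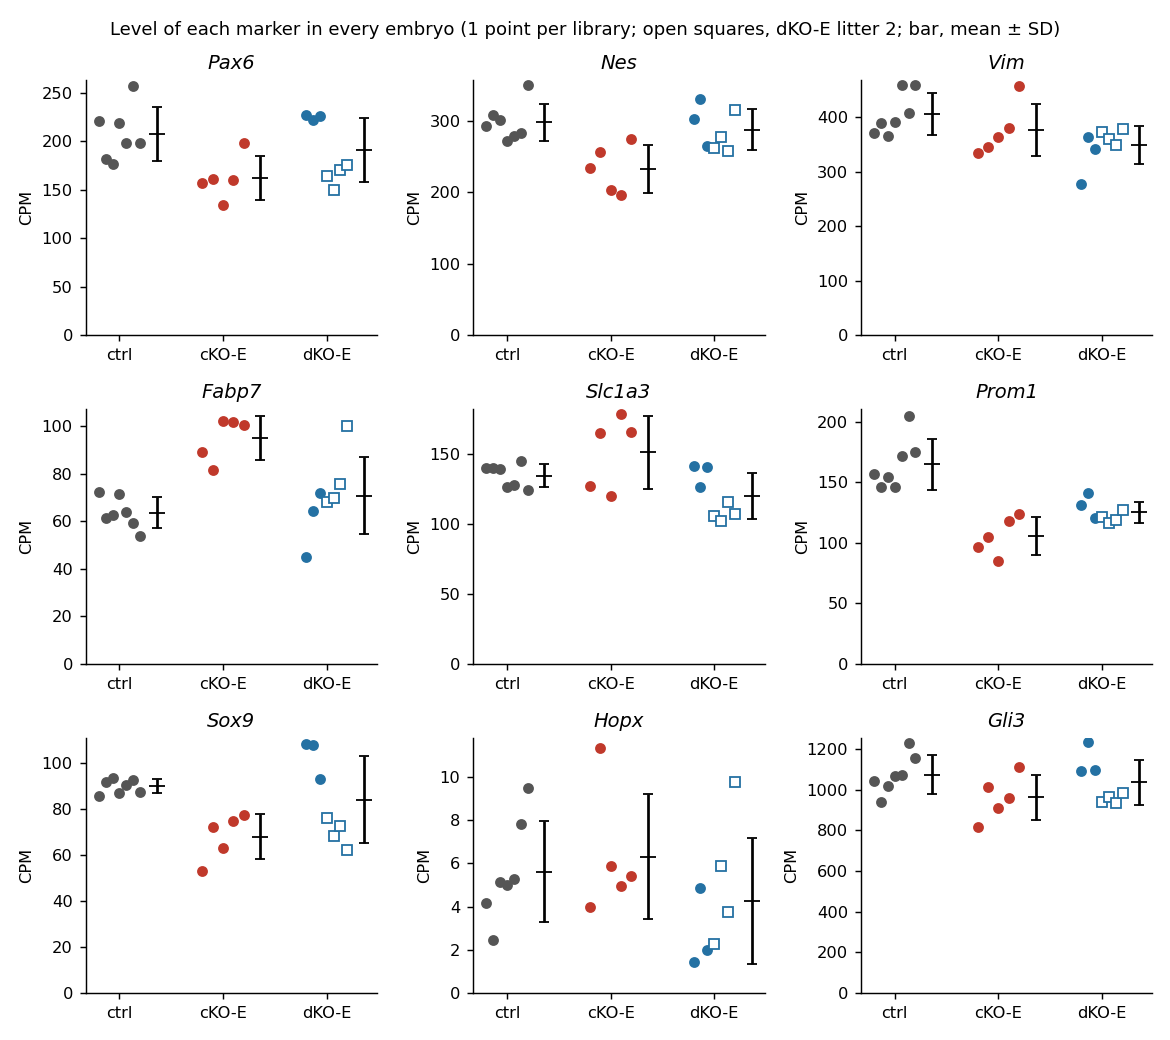
CPM of 9 markers in every embryo, with 1 point per library, open squares for dKO-E litter 2, and a bar for the mean ± SD of the 7 ctrl, 5 cKO-E and 7 dKO-E embryos. *Prom1* and *Sox9* lie below ctrl and *Fabp7* above ctrl in all 5 cKO-E embryos, and *Pax6*, *Slc1a3*, *Sox9* and *Gli3* split by litter in dKO-E.

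Markers of other cell types moved with genotype in the same libraries. The summed level of the 14 microglial markers was 43.6 to 57.2 CPM in cKO-E and 9.60 to 21.3 CPM in ctrl, where *Trem2* was at 0. Of the 14, 4 passed the filter on low counts here and 1, *Cx3cr1*, a chemokine receptor, in dKO-E against ctrl, so genes such as *Mpeg1* (0.899 ± 0.450 CPM in ctrl and 4.70 ± 0.66 in cKO-E) passed through the group where they are high and are given as levels only. *Cx3cr1* had 4.50 ± 2.52 CPM in ctrl and 10.3 ± 2.0 in cKO-E (log2 change 1.17, SE 0.31, adjusted p = 0.0135). Of the 6 Cajal-Retzius genes tested, 4 were higher in cKO-E, led by *Reln* (0.62, SE 0.07, adjusted p = 1.13e-05) and *Ebf3* (0.91, SE 0.12, adjusted p = 5.26e-05), and the sum over 8 such genes was 901 to 1040 CPM against 564 to 765 CPM in ctrl. The sum over 11 hem and choroid plexus genes, 3 of which passed the filter, ranged from 19.5 to 139 CPM in cKO-E and from 8.14 to 30.0 CPM in ctrl. The 14 ventral and interneuron markers summed to 133 to 183 CPM in cKO-E and 76.4 to 163 CPM in ctrl. None of the 8 endothelial and mural or the 3 blood cell genes tested was called by edgeR or DESeq2, and 0 had an unadjusted p below 0.05. *Prrx1* was the meningeal and mesenchymal gene tested and was lower. Their part in the changes of AP markers was not tested.

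Descendants of APs were read from the same libraries. Of 12 intermediate progenitor genes tested, 3 were lower in cKO-E and none higher, with *Neurog2* at -0.39 (SE 0.09, adjusted p = 0.00557) and *Eomes* at -0.32 (SE 0.09, adjusted p = 0.0165). Postmitotic neuron markers were mixed, with 3 of 15 higher, among them *Stmn2* (0.49, SE 0.10, adjusted p = 0.00237), and 2 lower, among them *Nrp1* (-0.70, SE 0.10, adjusted p = 8.15e-05). Of 10 cycling cell genes, 4 were lower and none higher, with *Mki67*, a protein of cycling nuclei, at -0.30 (SE 0.07, adjusted p = 0.00711) and the mitotic kinase gene *Aurkb* at -0.44 (SE 0.11, adjusted p = 0.0103).

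Further genes of the AP were read from a longer list. Of 34 other radial glia genes tested, 15 were lower and 3 higher in cKO-E, with a median log2 change of -0.29. *Id4*, an inhibitor of basic helix-loop-helix factors, went from 209 ± 19 CPM in ctrl (SD, n = 7) to 100.2 ± 26.0 in cKO-E (n = 5), a log2 change of -1.05 (SE 0.13, adjusted p = 2.98e-05). *Aldoc*, the glycolytic enzyme aldolase C, fell by 0.76 on the log2 scale (SE 0.10, adjusted p = 4.98e-05). *Tnc*, the matrix protein tenascin C, rose from 9.76 ± 3.55 to 31.9 ± 8.3 CPM (log2 change 1.64, SE 0.21, adjusted p = 5.33e-05), and *Ptprz1*, a receptor phosphatase, rose by 0.51 (SE 0.07, adjusted p = 0.000196). Groups did not overlap for these 4 genes, beside 8.77% of all genes tested. The 4 were named for the smallest p in each direction, so their separation adds no support.

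Among 17 genes of apical junctions and polarity, edgeR called 5 lower in cKO-E and none higher. *Fat4*, an atypical cadherin, was higher by 0.29 with an adjusted p of 0.050005 in edgeR, and DESeq2 called it higher. *Pard3*, a scaffold of the apical PAR complex, went from 838 ± 117 to 523 ± 57 CPM (log2 change -0.68, SE 0.09, adjusted p = 9.16e-05). *Dlg5*, a polarity scaffold, fell by 0.39 on the log2 scale (SE 0.06, adjusted p = 0.000159). The summed level of the 17 genes was 4579 to 5187 CPM in cKO-E and 5249 to 5459 CPM in ctrl, so the sums were apart. The mean sum was 5321 CPM in ctrl and 5003 CPM in cKO-E, beside 838 and 523 CPM for *Pard3* alone. Of the 17 genes, 14 had a log2 change below 0 and 3 above. *Fat4*, among the latter, had 612 ± 84 CPM in ctrl and 750 ± 94 in cKO-E, so rises and falls partly offset each other in the sum. The median log2 change of the 17 genes was -0.08.

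The second comparison asked how the markers stand when *Trp53* is deleted together with *Ino80*. In dKO-E, *Prom1* and *Vim* were downregulated against ctrl and no marker was upregulated, so that 2 of 9 were called. Over all 11381 genes tested, 10% were called lower and 5.45% higher. The median of the 9 log2 changes was -0.12, against 0.01 over all genes tested, and 8 of the 9 were below 0. The 7 ctrl embryos are the same as in the first comparison.

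*Prom1* ranged in dKO-E from 116 to 141 CPM with a median of 121, below the lowest ctrl value of 145.9 in all 7 embryos. The log2 change was -0.40 (SE 0.07, 95% interval -0.55 to -0.24, adjusted p = 0.00113), with -0.25 within batch 1 (adjusted p = 0.0424) and -0.60 within batch 2 (adjusted p = 0.0104). In litter 1, which held both genotypes, *Prom1* stood at 157 and 145.9 CPM in 2 ctrl embryos and at 131, 141 and 120.5 CPM in 3 dKO-E embryos, a log2 change of -0.23 (adjusted p = 0.321). With litter as a block it was -0.22 (adjusted p = 0.199), so the call was lost. *Prom1* was the 1 marker of 9 with groups that did not overlap, beside 4.44% of all genes tested, and no marker passed the rate of 0.001, which 2.58% of genes tested passed.

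*Vim* ranged from 366 to 460.1 CPM in ctrl with a median of 391, and from 277 to 379.6 CPM in dKO-E with a median of 361. The groups overlapped, with 5 of 7 dKO-E embryos below all ctrl embryos. Its log2 change was -0.23 (SE 0.07, adjusted p = 0.0376), -0.17 within batch 1 (adjusted p = 0.219) and -0.29 within batch 2 (adjusted p = 0.118). The lowest value, 277 CPM, was that of dKO-E embryo A, and without this embryo the log2 change was -0.17 (adjusted p = 0.0759). Leaving out any 1 of 9 of the 14 embryos ended this call. It was also lost with litter as a block (-0.22, adjusted p = 0.245), with a block by label letter (-0.22, adjusted p = 0.103) and with total counts (-0.13, adjusted p = 0.220).

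The markers called in cKO-E other than *Prom1* were not called in dKO-E against ctrl. *Sox9* had 83.9 ± 18.9 CPM (SD, n = 7) against 89.7 ± 3.0 in ctrl (log2 change -0.07, SE 0.10, adjusted p = 0.705). *Pax6* had 191 ± 33 CPM against 207 ± 28 (-0.12, SE 0.10, adjusted p = 0.478), and *Nes* 287 ± 29 against 298 ± 26 (-0.07, SE 0.07, adjusted p = 0.565). *Fabp7* had 70.8 ± 16.3 CPM against 63.6 ± 6.6 (0.11, SE 0.11, adjusted p = 0.573). Its log2 change was -0.08 within batch 1 (adjusted p = 0.715) and 0.52 within batch 2 (adjusted p = 0.0740). The 95% intervals ran from -0.28 to 0.14 for *Sox9*, -0.33 to 0.09 for *Pax6*, -0.21 to 0.08 for *Nes* and -0.13 to 0.34 for *Fabp7*.

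*Slc1a3* had 120.1 ± 16.4 CPM in dKO-E, a log2 change of -0.16 against ctrl (SE 0.08, adjusted p = 0.148). *Gli3* had 1035 ± 111 CPM (-0.06, SE 0.07, adjusted p = 0.603). *Hopx*, with 3 to 24 counts per library in dKO-E, had 4.27 ± 2.92 CPM (-0.60, SE 0.35, adjusted p = 0.267). None of these was called. Scaling by total counts changed the calls over all genes from 620 higher and 1139 lower to 1783 higher and 694 lower, and turned the values of *Nes*, *Sox9* and *Gli3* to 0.03 each.

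**Figure D3:**
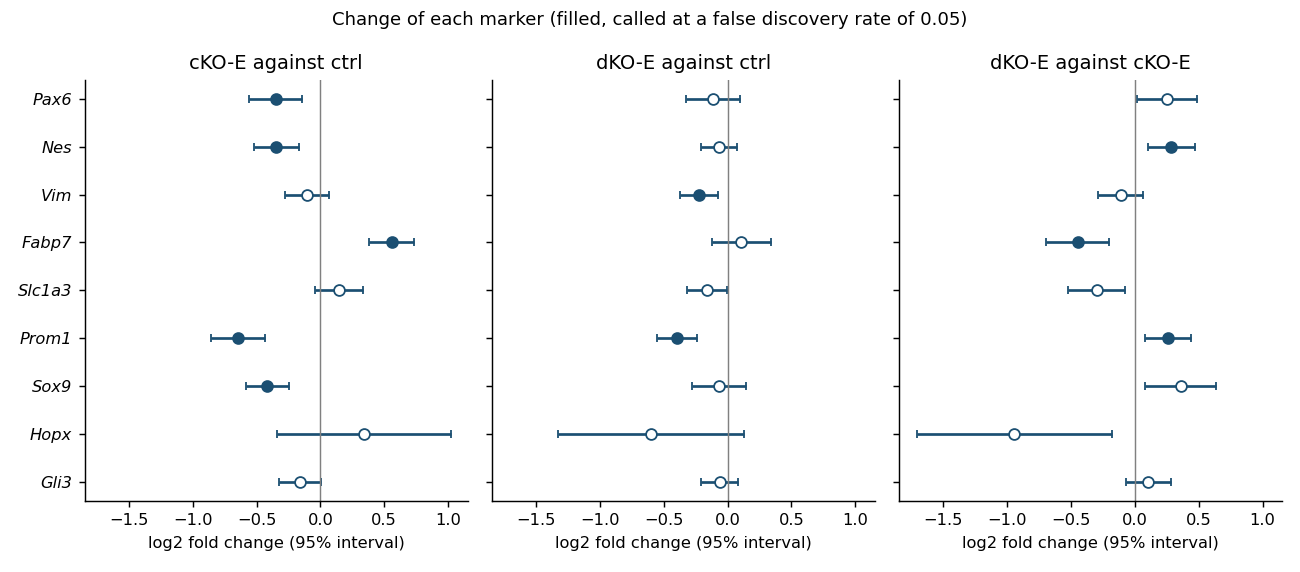
Log2 fold change of each marker with its 95% interval from edgeR in the 3 comparisons, filled where the adjusted p is below 0.05. In cKO-E against ctrl 4 markers were lower and 1 higher, in dKO-E against ctrl 2 were lower, and in dKO-E against cKO-E 2 were higher and 1 lower.

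The dKO-E embryos came from 2 litters, and 4 markers were split by litter without overlap, always with litter 2 below litter 1. This split was described after its values were seen and was not tested. *Sox9* stood at 108.2, 107.5 and 93.1 CPM in the 3 embryos of litter 1, and between 62.0 and 75.9 CPM in the 4 embryos of litter 2. The litter 2 values were below all 7 ctrl embryos and 2 litter 1 values were above them all. *Pax6* was between 221 and 227 CPM in litter 1 and between 149.7 and 175 CPM in litter 2, also below every ctrl embryo. *Slc1a3* was between 126 and 141 CPM in litter 1 and between 103 and 116 CPM in litter 2, and *Gli3* between 1092 and 1236 CPM and between 935 and 985 CPM. Of the 11381 genes tested, 10.3% had non-overlapping litters in either direction.

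Litter was not the only thing that set these embryos apart. Litter 1 was sequenced in batch 1 and held 2 females and 1 male, and litter 2 was spread over batches 1, 2 and 3 and was all male. *Nes*, *Vim*, *Fabp7*, *Prom1* and *Hopx* overlapped between the litters. *Fabp7* ran from 45.1 to 72.1 CPM in litter 1 and from 68.2 to 100.1 CPM in litter 2, with the highest in embryo G.

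Other lists split by litter as well. Of 34 other radial glia genes, 12 were lower without overlap in litter 2 and 2 higher, and their sum was 4454 to 4752 CPM in litter 2 and 5319 to 5917 CPM in litter 1. Of 12 intermediate progenitor genes, 6 were lower in litter 2, with sums of 521 to 597 CPM and 632 to 697 CPM. No cycling cell gene of 10 and no postmitotic neuron gene of 15 split in this way. The sums of microglial markers overlapped, at 8.41 to 14.2 CPM in litter 2 and 11.9 to 13.99 CPM in litter 1.

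When only the 4 litter 2 embryos were set against the 7 ctrl embryos, 4 markers were called lower, beside 902 of the 11503 genes tested. With only the 3 litter 1 embryos no marker was called, beside 555 of 12151 genes called lower. *Prom1* was -0.34 (adjusted p = 0.0631) and *Vim* -0.31 (adjusted p = 0.0719) with litter 1. *Vim* was -0.15 (adjusted p = 0.186) with litter 2. *Sox9* was -0.33 against ctrl with litter 2 (adjusted p = 0.00427) and 0.18 with litter 1 (adjusted p = 0.142). *Pax6* was -0.33 (adjusted p = 0.0288) and 0.11 (adjusted p = 0.564). *Slc1a3* was -0.32 with litter 2 (adjusted p = 0.00521). Both settings were added after the values were seen, and no ctrl embryo came from litter 2.

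**Figure D4:**
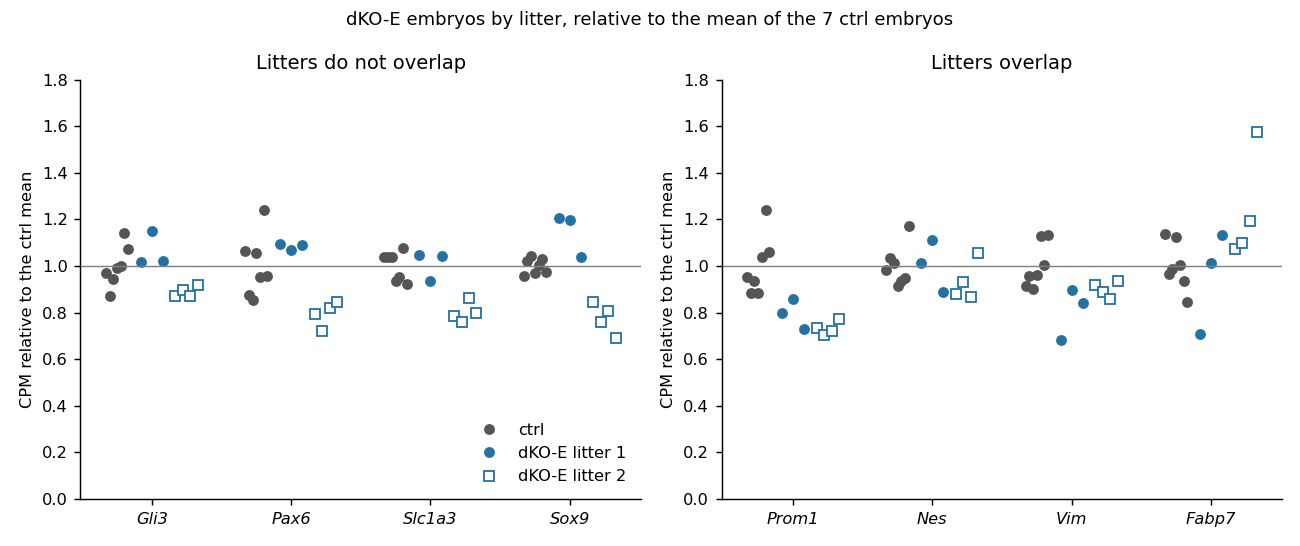
CPM of 8 markers relative to the mean of the 7 ctrl embryos, for ctrl (grey), the 3 dKO-E embryos of litter 1 (filled blue) and the 4 of litter 2 (open squares). *Gli3*, *Pax6*, *Slc1a3* and *Sox9* are lower in litter 2 than in litter 1 without overlap, and *Prom1*, *Nes*, *Vim* and *Fabp7* overlap.

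The same lists were read in dKO-E against ctrl. Of 34 other radial glia genes, 3 were lower and 1 higher, with a median of -0.09. *Pdpn*, the membrane glycoprotein podoplanin, fell by 0.41 on the log2 scale (SE 0.10, adjusted p = 0.0105) and *Cdon*, a Hedgehog co-receptor, fell by 0.33 (SE 0.09, adjusted p = 0.0187). *Ptprz1* rose by 0.23 (SE 0.06, adjusted p = 0.0218). Apical junction and polarity genes had 6 of 17 lower and none higher, led by *Crb1*, an apical polarity protein, at -1.07 (23.6 ± 4.8 CPM in ctrl and 10.7 ± 2.7 in dKO-E, SE 0.15, adjusted p = 5.68e-05), and *Dlg5* at -0.35 (SE 0.06, adjusted p = 0.000936). In cKO-E against ctrl, *Crb1* (-1.02, adjusted p = 0.00281), *Pdpn* (-0.44, adjusted p = 0.0200) and *Cdon* (-0.73, adjusted p = 0.000177) were called lower as well. From cKO-E to dKO-E, the log2 change was -0.04 for *Crb1* (adjusted p = 0.949), 0.03 for *Pdpn* (adjusted p = 0.913) and 0.41 for *Cdon* (adjusted p = 0.0177).

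None of the 10 cycling cell genes, 12 intermediate progenitor genes, 6 Cajal-Retzius genes, 6 ventral and interneuron genes or 1 microglial gene tested in dKO-E against ctrl was called by edgeR or DESeq2, and at an unadjusted p below 0.05 there were 1 intermediate progenitor and 1 Cajal-Retzius gene, both lower. Of 15 postmitotic neuron genes, 5 were lower, led by *Nrp1* (-0.61, SE 0.08, adjusted p = 4.39e-05) and *Map2* (-0.38, SE 0.07, adjusted p = 0.000696). The sum of microglial markers was 8.41 to 14.2 CPM in dKO-E, and that of Cajal-Retzius markers 498 to 692 CPM, both overlapping ctrl.

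The third comparison set dKO-E against cKO-E, which differ in the floxed *Trp53* alleles, in litter and in the balance of the sexes (4 females and 1 male in cKO-E, 2 females and 5 males in dKO-E). *Nes* and *Prom1* were higher and *Fabp7* was lower in dKO-E, so 3 of 9 markers were called. Over 11746 genes tested, 5.59% were called higher and 9.42% lower. The median of the 9 log2 changes was 0.11, against 0.02 over all genes tested. The 3 called markers were also called in cKO-E against ctrl, with the opposite sign, and the 2 comparisons share the 5 cKO-E embryos.

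*Fabp7* ranged from 45.1 to 100.1 CPM in dKO-E with a median of 69.8, and 6 of 7 dKO-E embryos lay below the lowest cKO-E embryo at 81.6 CPM. The log2 change from cKO-E was -0.45 (SE 0.12, 95% interval -0.69 to -0.20, adjusted p = 0.0143), -0.51 within batch 1 (adjusted p = 0.0363) and -0.27 within batch 2 (adjusted p = 0.539). With litter 2 embryos alone it was -0.32 (adjusted p = 0.0559).

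*Nes* ranged from 258 to 331 CPM in dKO-E with a median of 278, and 4 of 7 embryos lay above the highest cKO-E embryo at 275 CPM. That is a log2 change of 0.29 (SE 0.09, adjusted p = 0.0336), 0.33 within batch 1 (adjusted p = 0.0792) and 0.20 within batch 2 (adjusted p = 0.656). Leaving out 1 embryo ended the call in 6 of 12 cases, and the value without cKO-E embryo C was 0.23 (adjusted p = 0.120).

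*Prom1* was 125 ± 9 CPM in dKO-E (SD, n = 7) and 106 ± 16 in cKO-E (n = 5), with 3 of 7 dKO-E embryos above every cKO-E embryo. Its log2 change was 0.26 (SE 0.09, adjusted p = 0.0487), 0.42 within batch 1 (adjusted p = 0.0185) and -0.01 within batch 2 (adjusted p = 0.985). All dKO-E embryos of batch 2 came from litter 2, so batch and litter cannot be told apart in such splits. The call was lost in 9 of 12 cases when 1 embryo was left out, with an adjusted p up to 0.177.

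The other markers were not called between the mutants. *Sox9* was 0.36 higher in dKO-E (SE 0.13, 95% interval 0.08 to 0.64, adjusted p = 0.0788), with 0.61 within batch 1 (adjusted p = 0.0174) and -0.16 within batch 2 (adjusted p = 0.790). *Pax6* was 0.25 higher (SE 0.11, adjusted p = 0.156), with 0.48 within batch 1 (adjusted p = 0.0262) and -0.10 within batch 2 (adjusted p = 0.838). *Gli3* was 0.11 higher (SE 0.08, adjusted p = 0.458). With sex as a covariate *Sox9* (0.53, adjusted p = 0.00272) and *Pax6* (0.41, adjusted p = 0.00696) were called higher beside *Nes* and *Prom1*, and *Gli3* was at 0.20 (adjusted p = 0.0918). *Slc1a3* was 0.30 lower on the log2 scale (a difference of -0.30, SE 0.11, adjusted p = 0.0651). Its difference was -0.16 with sex as a covariate (adjusted p = 0.312), -0.10 within batch 1 (adjusted p = 0.690) and -0.60 within batch 2 (adjusted p = 0.00769). With dKO-E embryos of litter 2 alone it was -0.47 (adjusted p = 0.00592). *Hopx* had a difference of -0.94 (SE 0.37, adjusted p = 0.0936). *Vim* had a difference of -0.11 (SE 0.08, adjusted p = 0.428). With dKO-E embryos of litter 1 alone, *Sox9* (0.60, adjusted p = 0.00455) and *Pax6* (0.47, adjusted p = 0.00894) were called higher. In that setting *Nes* (0.35, adjusted p = 0.0595) and *Prom1* (0.32, adjusted p = 0.0817) were not called. With litter 2 alone *Nes* (0.22, adjusted p = 0.136) and *Prom1* (0.20, adjusted p = 0.205) were not called either.

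No marker had groups that did not overlap in this comparison, beside 7.09% of all genes tested, and none passed the rate of 0.001, which 3.13% passed. Scaling by total counts changed the calls over all genes from 657 higher and 1106 lower to 1064 higher and 942 lower.

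Of the 34 other radial glia genes, 11 were higher in dKO-E than cKO-E and 3 lower, with a median of 0.20. *Ttyh1*, a membrane protein of the tweety family, went from 113 ± 16 CPM in cKO-E (SD, n = 5) to 176 ± 19 in dKO-E (n = 7), a log2 change of 0.65 (SE 0.09, adjusted p = 7.85e-05). *Yap1*, the Hippo pathway coactivator, rose by 0.50 (SE 0.09, adjusted p = 0.000582). *Tnc* fell by 1.35 on the log2 scale (SE 0.22, adjusted p = 0.00028) and *Veph1* by 0.80 (SE 0.15, adjusted p = 0.000883). Cycling cell genes had 5 of 10 higher and none lower, led by *Aurkb* at 0.53 (SE 0.12, adjusted p = 0.00454) and the mitotic kinesin gene *Kif11* at 0.34 (SE 0.08, adjusted p = 0.00749).

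Apical junction and polarity genes had *Pard3* higher by 0.28 (SE 0.08, adjusted p = 0.0169) and *Fat4* lower by 0.66 on the log2 scale (a difference of -0.66, SE 0.08, adjusted p = 9.28e-06), of 17 tested. In the same comparison, 7 of 15 postmitotic neuron genes were lower in dKO-E and none was called higher. *Reln* was lower as well, with a difference of -0.70 (SE 0.08, adjusted p = 9.07e-06), and the summed levels of microglial and of Cajal-Retzius markers in dKO-E lay below those of every cKO-E embryo. Ventral and interneuron markers summed to 102.2 to 138 CPM in dKO-E (mean 117) and 133 to 183 CPM in cKO-E (mean 153), so the ranges overlapped at their ends. Of the 7 such genes tested, 4 were called lower in dKO-E and 0 higher, with a median log2 change of -0.64. No intermediate progenitor gene of 12 was called by edgeR or DESeq2, and 3 were higher at an unadjusted p below 0.05. Their part in the values of the AP markers was not tested.

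**Figure D5:**
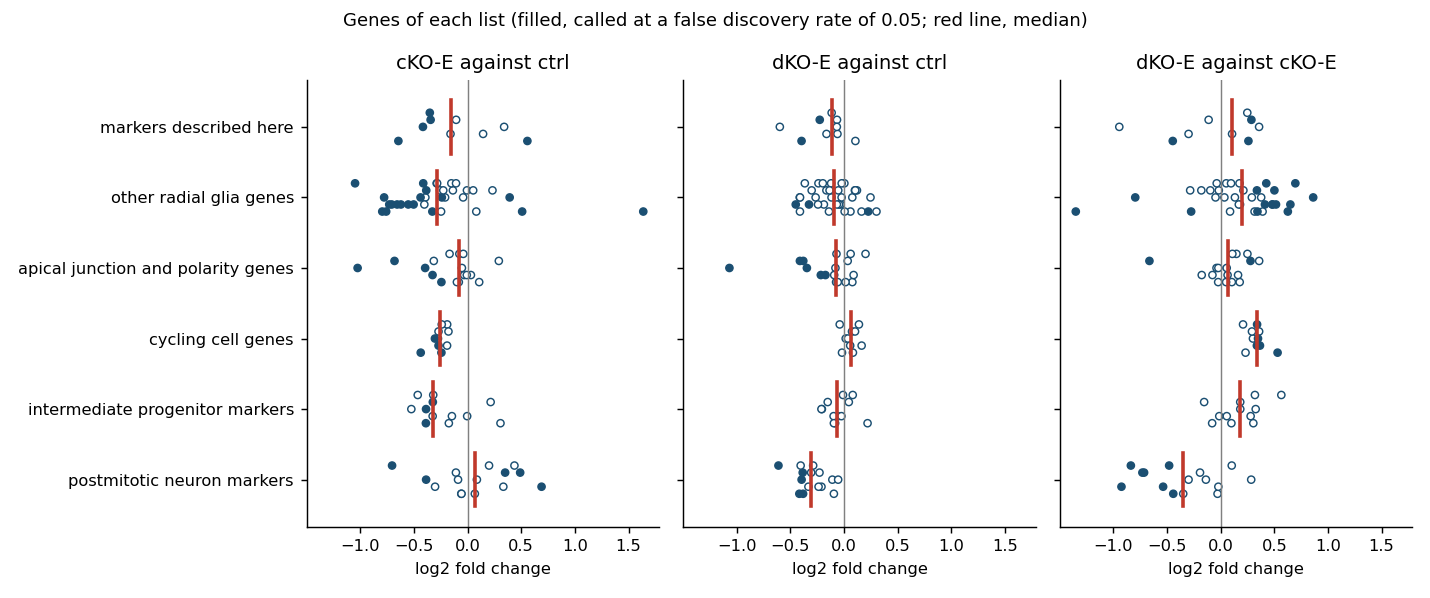
Log2 fold change of every tested gene in 6 lists for the 3 comparisons, filled where called, with a red line at the median of the list. In cKO-E against ctrl the other radial glia genes have a median of -0.29 and the 10 cycling cell genes lie below 0, and in dKO-E against cKO-E the medians are 0.20 and 0.34.

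For each marker called in any comparison, the gene with the most similar profile over the 19 libraries was found among 11306 genes, by the mean absolute difference between standardized log2 CPM. For *Prom1* this was *Baz1a*, a subunit of a chromatin remodeler, at a distance of 0.21 SD, where the median over all genes was 1.16 SD. *Baz1a* had 124 ± 14 CPM in ctrl, 81.7 ± 7.9 in cKO-E and 99.4 ± 13.0 in dKO-E. For *Sox9* it was *Gli2*, a Hedgehog transcription factor (0.29 SD), with 459 ± 27, 382 ± 37 and 418 ± 64 CPM. For *Pax6* it was *Megf10* (0.34 SD), with 214 ± 14, 169.9 ± 25.4 and 200.4 ± 30.3 CPM. *Slc9a9* was nearest to *Fabp7* (0.43 SD) with 14.2 ± 0.9, 24.4 ± 1.4 and 15.4 ± 2.4 CPM, *Scaf4* to *Nes* (0.39 SD) and *Rpl32* to *Vim* (0.44 SD). Likeness here means only that the profiles lie close over these libraries.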

How the data were processed

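The deposited values are counts, the whole number of deduplicated reads on each gene that the authors obtained from 19 Click-seq libraries, without normalization. By the methods and the submitters' processing notes, ribosomal RNA was depleted, adapters were trimmed with cutadapt 1.13, reads were aligned to GRCm38/mm10 with STAR 2.5.2a, deduplicated by molecular identifier with UMI-tools 0.5.3 and counted with HTSeq 0.6.1p1. The GENCODE release and strand setting are not given in the sources used here. Reads on no gene, several genes or several places were 23.3% to 31.8% of the listed totals and were left out.

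Identifiers were matched without version to GENCODE M21 (51633 of 51912 found). The members and lists were chosen with earlier results of these data known, and alternatives by litter and for sequencing batch 2 were added after seeing the data. Each comparison was fitted alone without covariates in R 4.3.3 with edgeR 4.0.16: filterByExpr at a minimum count of 10, TMM factors, and the quasi-likelihood test, two-sided, with Benjamini-Hochberg adjustment over all genes tested. The SE is the size of the log2 fold change divided by the square root of F. CPM used TMM factors over all 19 libraries. Named genes were all 10 markers, the gene most like each called marker, the 2 called radial glia genes with the smallest p per direction and comparison, at most 2 called genes of each other list, *Ino80*, *Trp53*, *Emx1* and genes overlapping a marker; *Sox1*, *Sox3*, *Sox2ot*, *Tubb3* and *Neurod1* were added after their values were seen. The result of 1 gene of the ventral and interneuron list is not reported here. The lists of marker genes were written from general knowledge, and 1 of the 18 symbols in the junction list is a newer name of another, which left 17 genes. Promoter sequences are from RefSeq on GRCm38.p6, which held windows for 9 of the 10 markers; that of *Sox9* was not used.

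The floor of 3 counts equals 0.370 to 3.73 CPM by library and covers counting error only. No 2 libraries of a group agreed within sampling noise (chi-square per degree of freedom at least 1.42). Separate embryos were the replicates. The test was checked on simulated counts with known changes. The simulated embryos had no litter or batch effect, so the check does not cover such effects. Alternatives were the likelihood ratio test, DESeq2 1.42.0, RLE, total-count and upper-quartile scaling, looser and stricter filters, covariates for batch or sex, blocks for litter or label letter, a joint fit of the 19 libraries, single batches or litters, a false discovery rate of 0.001, and each embryo left out in turn. Plots used Python 3.11.15 with matplotlib 3.10.9.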

Additional observations from a re-analysis of the deposited data

Results flagged for a closer look

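2 of the 27 sets of marker values (9 markers in 3 groups) held an embryo far from the rest of its group, where chance gives about 1 in 20. *Vim* in dKO-E embryo A was at 277 CPM, and the other 6 dKO-E embryos were between 342 and 379.6 CPM. In cKO-E, *Hopx* reached 11.3 CPM in embryo B against a range over the other 4 between 3.98 and 5.87 CPM. Both embryos are in the values given above, and the cause was not tested.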

How the results depend on the processing

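Results in cKO-E against ctrl changed least. *Prom1* stayed lower and *Fabp7* higher, past the threshold, under all 15 alternatives and with each of the 12 embryos left out. The 4 markers called lower became 1 at the rate of 0.001 and 1 in sequencing batch 2 alone, and *Hopx*, not called, turned to -0.52 in batch 2 alone and -0.048 without cKO-E embryo B (-0.048 to 0.50 with 1 embryo left out). In dKO-E against ctrl, the 2 markers called lower became 4 with dKO-E embryos of litter 2 alone, 1 with total counts, upper-quartile factors, no filter, 1 fit over all libraries or either batch alone, and 0 with litter as a block, litter 1 alone, dKO-E embryos of litter 1 alone or the rate of 0.001; leaving out 1 embryo gave 1 to 2. With litter as a block, values turned to 0.15 for *Pax6*, -0.11 for *Fabp7*, 0.19 for *Sox9* and 0.19 for *Gli3*. Turned values in batch 1 alone were 0.058, -0.077, 0.080 and 0.087 for the same 4 genes, with dKO-E embryos of litter 1 alone 0.11, -0.050, 0.18 and 0.076, and in litter 1 alone 0.14, -0.12, 0.19 and 0.18; total counts turned *Nes* to 0.029, *Sox9* to 0.026 and *Gli3* to 0.030. In dKO-E against cKO-E, the 2 markers called higher became 4 without a filter or with sex as a covariate, 1 with DESeq2, RLE or upper-quartile factors, 10 counts required in every library or batch as a covariate, and 0 in batch 2 alone, with dKO-E embryos of litter 2 alone or at the rate of 0.001, and 0 to 2 with 1 embryo left out. The 1 called lower became 2 with the likelihood ratio test or 1 fit over all libraries, 3 without a filter, 0 at the rate of 0.001, and 1 to 2 with 1 embryo left out. The marker added by the likelihood ratio test and by the fit over all libraries was *Slc1a3*. In batch 2 alone and with dKO-E embryos of litter 2 alone, *Slc1a3* was called lower and *Fabp7* was not. Batch 2 alone turned *Pax6* to -0.10, *Prom1* to -0.011, *Sox9* to -0.16 and *Gli3* to -0.13, and litter 2 alone turned *Gli3* to -0.016. In the same comparison, dKO-E embryos of litter 1 alone gave *Sox9* and *Pax6* as called higher in place of *Nes* and *Prom1*. The causes were not tested.

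Same-lettered embryos did not vary together (correlations of their deviations from -0.37 to 0.14), so the letters do not pair them. The replicate block by letter gave 1 marker higher and 4 lower in cKO-E against ctrl, 1 lower in dKO-E against ctrl, and 1 higher and 2 lower in dKO-E against cKO-E; it turned *Pax6* to 0.0062, *Fabp7* to -0.043, *Sox9* to 0.012 and *Gli3* to 0.027 in dKO-E against ctrl. A litter block could not be fitted between dKO-E and cKO-E. All 27 mean levels moved by less than 1 SD with total counts. Depth limits *Hopx* most, at 3 to 40 counts per library. Whether ctrl carried Cre is not known here, and neither cell numbers nor *Sox2* can be read from these counts.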
